A study of Mus musculus and Homo sapiens with 12 samples.

Results

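The mitosis and G2/M genes described here are 56 genes that act between entry into mitosis and the separation of the daughter cells. They were given as a list of symbols, matched without regard to case to the symbols in the deposited normalized tables, and then by Ensembl identifier to the raw counts. By role, 16 belong to cyclin-CDK control, 15 to the kinetochore and its checkpoint, 12 to spindle motors and microtubule proteins, 8 to condensin and chromosome structure and 5 to cytokinesis. The mouse raw table lists 55487 genes and the human one 78932. All 56 members were matched in the human table and 55 in the mouse table, where KIF4A has no entry under that symbol because the mouse gene is called Kif4. All 55 mouse and all 56 human members passed the filter on low counts.

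The study measured polyadenylated RNA after loss of DDX21, an RNA helicase of the nucleolus, in 2 kinds of blood progenitor. The mouse libraries came from live fetal liver cells sorted at E13.5, the age in embryonic days, as negative for lineage antibodies and positive for Kit (LK cells). The 3 WT libraries have the genotype Ddx21f/f, and the 3 cKO libraries have the genotype Vav-Cre; Ddx21f/f, so both groups carry loxP-flanked Ddx21 and only the cKO genotype names Cre, driven by the promoter of Vav, a gene active across the blood lineage. The human libraries came from H1, an established embryonic stem cell line, differentiated toward blood stem cells and transduced with lentivirus carrying shNC-mCherry or shDDX21-mCherry, with 3 libraries each. These cells were sorted 2 days after transduction as CD34+, CD45+, CD43+ and positive for the vector. Nothing in the labels ties a library to its own litter, embryo or culture, so the p-values measure only the spread between these libraries, which may be technical.

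In a dividing cell, CDK1 bound to cyclin B drives entry into mitosis, condensin compacts the chromosomes, and kinesins and microtubule proteins build the spindle. Kinetochores attach chromosomes to the spindle, and the checkpoint built on them holds back the CDC20-bound anaphase-promoting complex until all are attached. Separase then frees the sister chromatids, and cytokinesis divides the cell. Most of these genes are transcribed late in the cell cycle. Many of their promoters hold a cell cycle genes homology region (CHR), a short motif read by the MuvB protein core, which is part of the repressing DREAM complex and also joins the activators B-MYB and FOXM1. A CCAAT box, bound by NF-Y, often lies beside it. Progenitors of the fetal liver divide fast while the blood system expands.

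Promoter sequence was available for the mouse members, from RefSeq on GRCm38.p6, as windows from 250 bases before to 50 bases after a start site. By symbol, 47 members matched, with 52 windows. Those not matched were Ccna2, Cdc25c, Aurkb, Incenp, Kif4a, Tpx2, Dlgap5, Smc4 and Cdca2. The stretches below run 5′ to 3′ over the 100 bases before the start site. Capitals mark CHR letters (TTTGAA or TTCGAA, or TTCAAA where TTTGAA is on the other strand) and CCAAT boxes (CCAAT, or ATTGG on the other strand). They show at least 1 gene of each role that fell in the mouse, then Ube2c, which did not pass the test, and Gtse1, which rose.
Cdk1 (chr10:69352913-69353012, minus strand): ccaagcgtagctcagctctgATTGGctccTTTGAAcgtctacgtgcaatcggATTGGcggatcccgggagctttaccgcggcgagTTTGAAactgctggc
Espl1 (chr15:102296193-102296292, plus strand): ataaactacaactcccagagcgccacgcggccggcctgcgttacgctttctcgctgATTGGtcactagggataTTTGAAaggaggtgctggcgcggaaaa
Cdc20 (chr4:118437344-118437443, minus strand): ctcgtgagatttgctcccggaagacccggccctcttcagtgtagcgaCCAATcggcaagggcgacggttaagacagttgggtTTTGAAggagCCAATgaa
Kif11 (chr19:37376282-37376381, plus strand): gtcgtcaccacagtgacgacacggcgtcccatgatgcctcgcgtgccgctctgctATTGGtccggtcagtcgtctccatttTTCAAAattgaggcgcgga
Top2a (chr11:99024190-99024289, minus strand): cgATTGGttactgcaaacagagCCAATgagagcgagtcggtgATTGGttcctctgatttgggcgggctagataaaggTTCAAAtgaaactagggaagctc
Prc1 (chr7:80294376-80294475, plus strand): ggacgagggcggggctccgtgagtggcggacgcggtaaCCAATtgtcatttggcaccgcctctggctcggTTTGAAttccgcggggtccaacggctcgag
Ube2c (chr2:164769829-164769928, plus strand): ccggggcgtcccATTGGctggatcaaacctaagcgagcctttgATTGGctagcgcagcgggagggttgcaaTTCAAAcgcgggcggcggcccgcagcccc
Gtse1 (chr15:85859607-85859706, plus strand): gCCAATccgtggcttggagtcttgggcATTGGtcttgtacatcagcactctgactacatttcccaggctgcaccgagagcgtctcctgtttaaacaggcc

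CHR letters on either strand were found in the windows of 37 of the 47 members (78.7%), against 21.7% of the 27025 genes in the table. CCAAT boxes were in 38 members (80.9%) against 41.1% of genes, and a window with both was found for 32 members (68.1%) against 8.6% of genes. The letters TTCGCGC or TTGGCGC, which match binding sites of the E2F factors of the G1/S transition, were in 6 members (12.8%) against 4.5% of genes. TTGG is shared by ATTGG and TTGGCGC, so 1 stretch can match as a CCAAT box and as E2F letters. In the stretch from 100 bases before to 50 after the start site, CHR letters were in 72.3% of members and 9.9% of genes. The 10 members without CHR letters were Ccnb1, Cks2, Nek2, Gtse1, Pttg1, Cenpe, Nuf2, Birc5, Tacc3 and Nusap1. A match is only a match of letters and does not show that a factor binds there. Other forms of the CHR were not searched, so a member without these letters may still hold one.

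**Figure D1:**
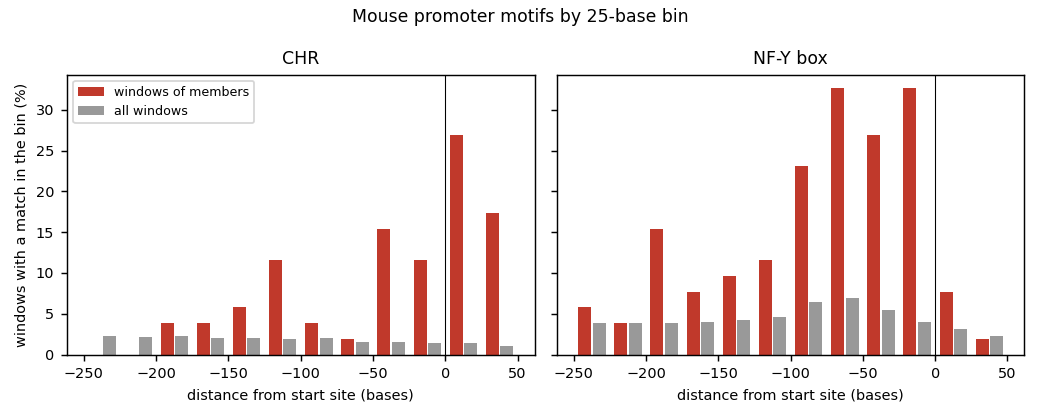
Share of promoter windows (y axis, percent) with CHR letters (left) or a CCAAT box, labelled NF-Y box (right), in bins of 25 bases by distance from the start site (x axis), for the 52 windows of members (red) and all 32851 windows in the table (grey). CHR letters were most frequent among members in the bin from 0 to 25 bases, at 26.9% of windows against 1.43% of all windows.

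The mouse libraries held 21116079 to 23898130 counts and the human libraries 15289510 to 19798608. DDX21 itself was at 1410 to 1432 CPM (read counts scaled to a common library size with edgeR's TMM factors) in WT and 276 to 283 CPM in cKO, and at 465 to 477 CPM in shNC and 67.0 to 69.2 CPM in shDDX21. Mouse counts span all exons of Ddx21, so a transcript lacking the deleted part is counted too. In the mouse, WT replicate 3 stood apart, with a chi-square per degree of freedom of 15.7 and 10.9 against WT replicates 1 and 2, which differed from each other by 1.96. The cKO replicates 1 and 2 lay farthest from each other, at 25.1, and were about equally far from cKO replicate 3, at 7.25 and 7.82, so these values do not single out either of them. Human replicates differed by 1.54 to 1.71. Kit was at 359 to 368 CPM in WT and 312 to 322 CPM in cKO, and Cd3e, a T cell marker excluded by the sort, was at most at 0.041 CPM. Human CD34 was at 245 to 251 CPM in shNC and 296 to 299 CPM in shDDX21.

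Nearly all of these genes, which were chosen with earlier results of these data known, were lower after loss of DDX21 in both experiments. In the mouse, 49 of 55 members fell in cKO and 1, Gtse1, rose (edgeR quasi-likelihood test, Benjamini-Hochberg adjusted p under 0.05 over all 14918 genes tested). Of all genes tested, 15.8% fell and 20.7% rose. Among the human libraries, 55 of 56 members fell in shDDX21 and 0 rose, by edgeR or DESeq2, where 27.4% of 20188 genes fell and 25.3% rose. The median log2 fold change over the members was -0.47 in the mouse and -0.73 in the human cells, beside 0.001 and 0.005 over all genes tested. Of the members, 48 fell in both experiments, and the share of all matched genes that did so was not counted.

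In the mouse the log2 fold changes of the members had quartiles of -0.59 and -0.38, and 0 members fell by 2-fold or more, against 1.8% of all genes. The human quartiles were -1.02 and -0.58, and 16 members fell by at least 2-fold, against 3.83% of all genes. These were KIF11, KIF20B, KIF4A, TPX2, CKAP2L, DLGAP5 and HMMR of the spindle, TOP2A, TMPO, SMC4, NCAPG and CDCA2 of the chromosomes, CENPE and BIRC5 of the kinetochore, GTSE1, and ANLN of cytokinesis. The 2-fold line passes between ANLN at -1.0 and INCENP at -0.97. In bulk RNA, fewer cells in mitosis and less of these transcripts in each cell cannot be told apart.

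**Figure D2:**
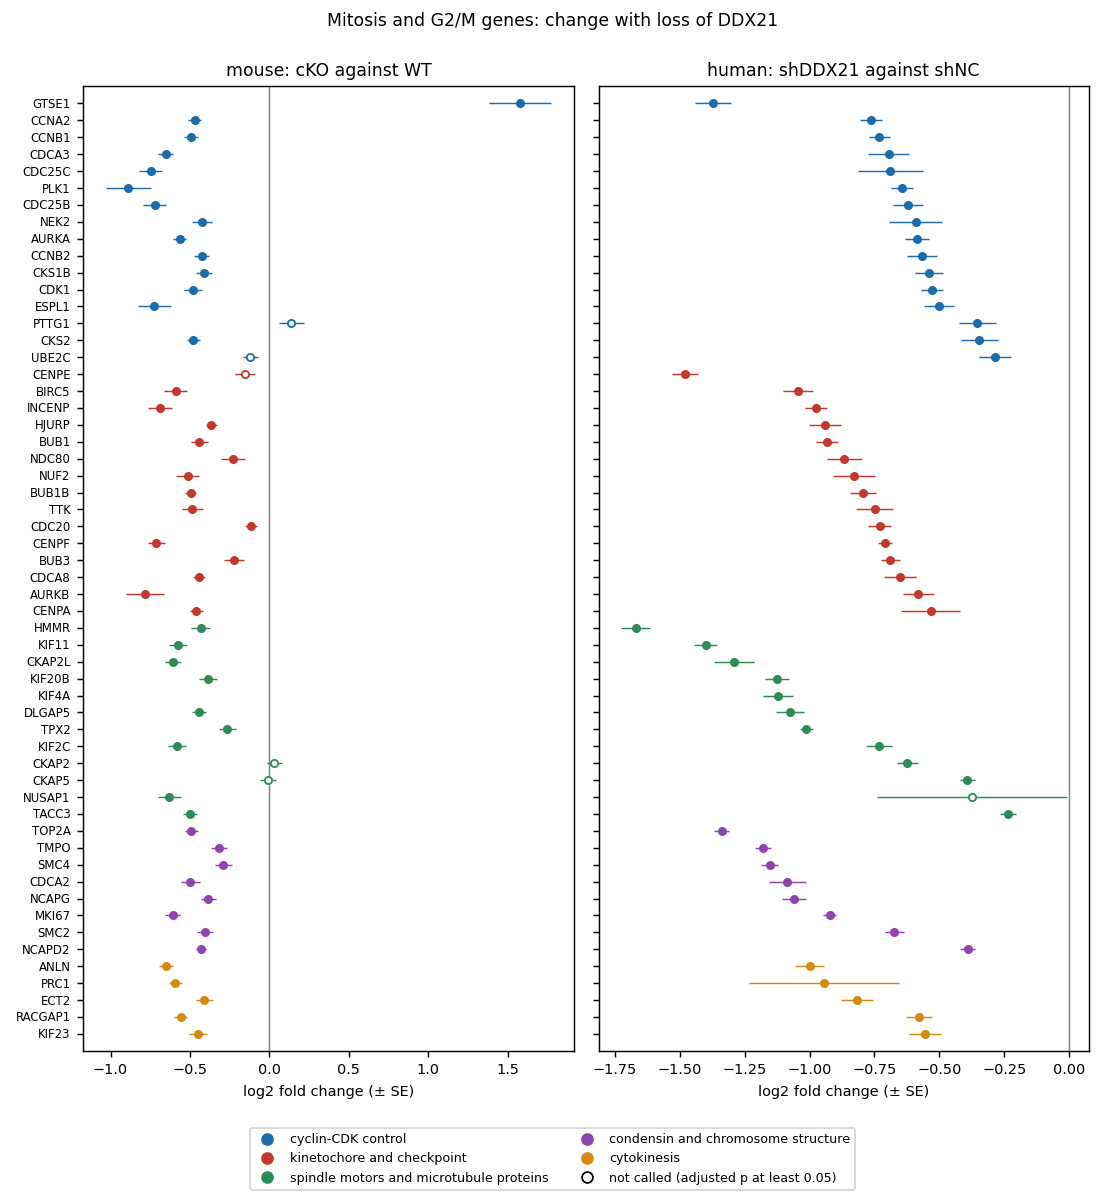
Log2 fold change of each member (points, bars ± SE) for cKO against WT (left) and shDDX21 against shNC (right), coloured by role, with open points for members that did not pass the test. Most mouse members lie left of 0, from -0.89 (Plk1), with Gtse1 alone far to the right at 1.58, while the human members run from -1.67 (HMMR) to -0.23 (TACC3).

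The fall was present in every library. Summed over the 55 members, the WT libraries held 10990, 11080 and 11330 CPM and the cKO libraries 8120, 8484 and 8196 CPM. Summed over the 56 members, the shNC libraries held 4812, 4836 and 4819 CPM and the shDDX21 libraries 2734, 2744 and 2716 CPM. Groups did not overlap in either sum. Taken gene by gene, all 3 cKO libraries were below all 3 WT libraries for 50 of 55 mouse members, against 21.4% of all genes tested. All 3 shDDX21 libraries were below all 3 shNC libraries for 55 of 56 human members, against 29.5%. The cKO libraries were all above WT for 1 member, Gtse1, against 27.6% of genes, and the shDDX21 libraries all above shNC for 0 members, against 27.9%. Without WT replicate 3 and cKO replicate 2, a setting chosen after the data were seen, 50 mouse members fell, 1 rose, and the median was -0.46.

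Summed markers of several other cell types also differed between the groups, counting the listed markers that have a symbol in the deposited tables. In the mouse, 8 of 10 granulocyte and monocyte markers summed to 662 to 894 CPM in WT and 326 to 563 CPM in cKO, and 4 of 4 lymphoid markers to 1.39 to 2.38 CPM and 0.523 to 0.680 CPM. The 5 endothelial markers were at 48.4 to 52.2 CPM and 82.1 to 89.6 CPM, 6 of 8 hepatocyte markers at 1.31 to 1.72 CPM and 28 to 31.9 CPM, and the 6 megakaryocyte markers at 73.3 to 88.9 CPM and 116.2 to 162 CPM. By the test, 3 of 5 endothelial, 4 of 4 hepatocyte and 2 of 5 megakaryocyte markers tested were higher, and 0 of them lower. The log2 fold changes of 2 endothelial and 2 megakaryocyte markers were below 0. The 6 granulocyte and monocyte markers and the 2 lymphoid markers tested were all lower. The 6 progenitor markers summed to 1311 to 1349 CPM in WT and 1410 to 1422 CPM in cKO, with 2 higher and 2 lower by the test. The sums of 2 lists overlapped between the mouse groups: 10 of 17 erythroid markers were at 371 to 535 CPM and 421 to 657 CPM, with 6 higher and 2 lower by the test, and 4 of 4 pluripotent markers at 3.68 to 4.41 CPM and 3.99 to 4.92 CPM.

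In the human cells, 6 of 10 granulocyte and monocyte markers summed to 601 to 615 CPM in shNC and 499 to 504 CPM in shDDX21, the 5 endothelial markers to 1517 to 1558 CPM and 1326 to 1346 CPM, and 1 of 8 hepatocyte markers was at 5.81 to 6.83 CPM and 4.21 to 5.24 CPM. By the test, 5 granulocyte and monocyte markers were lower and 1 higher, and 3 endothelial markers were lower and 1 higher. The sums over 8 of 17 erythroid markers (453 to 474 CPM and 548 to 564 CPM) and 3 of 6 megakaryocyte markers (1368 to 1429 CPM and 1634 to 1656 CPM) were higher in shDDX21. So were those over 2 of 4 pluripotent markers (229.7 to 239 CPM and 278 to 288.5 CPM) and 3 of 4 lymphoid markers (3.525 to 4.22 CPM and 5.125 to 5.45 CPM). By the test, 5 erythroid markers were higher and 1 lower, and 2 megakaryocyte markers were higher and 1 lower. Of the pluripotent markers 1 was higher and 0 lower, and 0 lymphoid markers passed. ITGA2B, a megakaryocyte marker, was alone at a mean of 1351 CPM in shNC and 1582 CPM in shDDX21. The 6 progenitor markers summed to 1720 to 1748 CPM in shNC and 1689 to 1720 CPM in shDDX21, with 3 higher and 3 lower by the test. SPN, CD34 and KIT were at 128%, 120% and 110% of shNC, and PTPRC, MYB and GATA2 at 73.0%, 65.8% and 45.9%. Of the markers with a symbol, 0 were at 0 in every library, and those without one were not checked. The part of these cell types in the members' result was not tested.

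**Figure D3:**
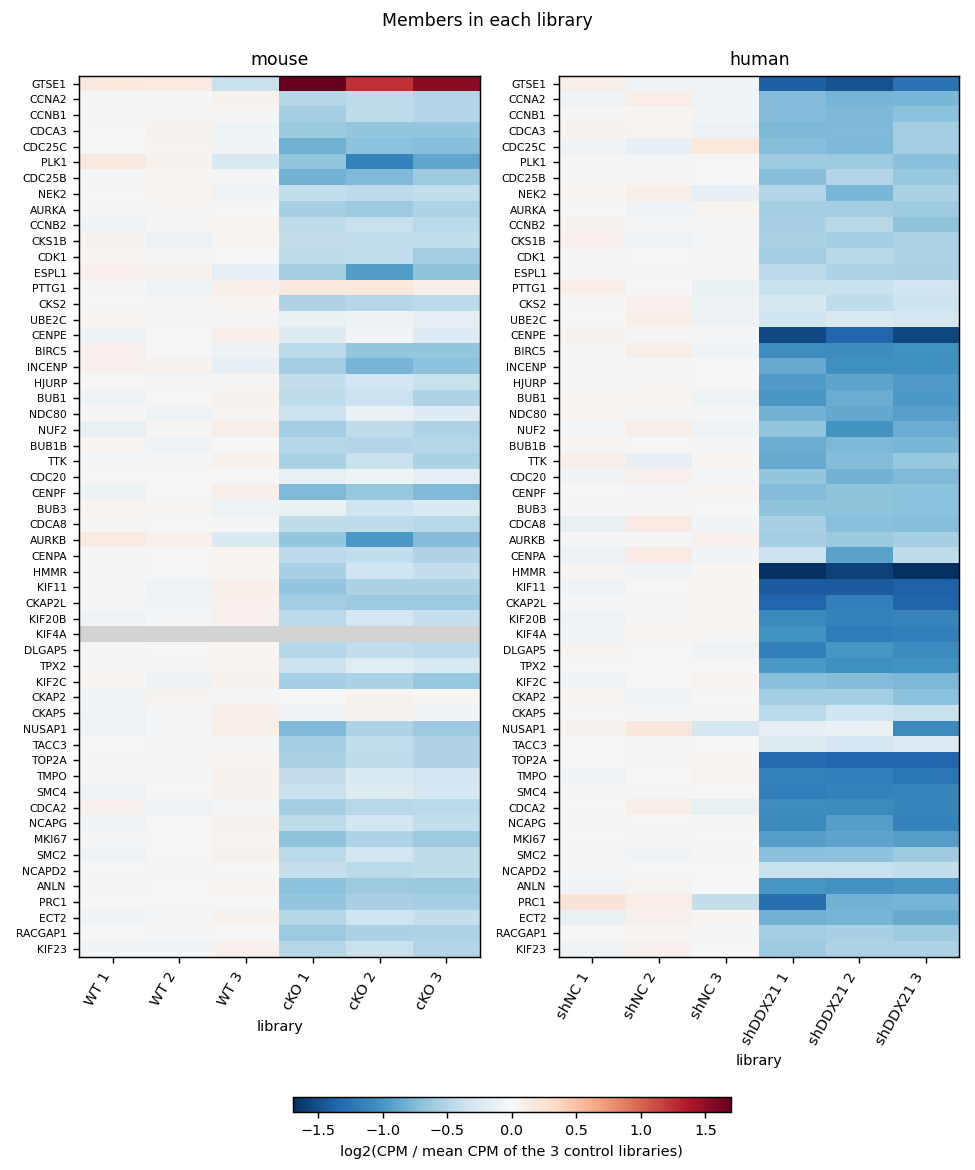
Each member (rows, by role) in each library (columns), as log2 of its CPM over the mean CPM of the 3 control libraries of that experiment, blue for lower and red for higher, with the unmatched mouse KIF4A in grey. The 3 cKO and the 3 shDDX21 columns are blue for nearly all members, apart from Gtse1 in the mouse.

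Levels per transcript length, as TPM (read counts divided by gene length and scaled to 1 common total) computed from the counts and the deposited gene lengths, ran from 18.3 to 632 over the members in WT, with a median of 95.0. Mki67, the proliferation marker Ki-67 that coats mitotic chromosomes, was at 632 ± 34.0 TPM (SD, n = 3) and Cks2, a small subunit of CDK complexes, at 630 ± 30.2 TPM, so the 2 most abundant members did not differ beyond their spread. Cks1b (365 ± 23.3), Smc4 (355 ± 23.2), Top2a (348 ± 19.8) and Ncapd2 (339 ± 7.94 TPM) followed, each within an SD of its neighbour. Cdc25c was lowest, at 18.3 ± 0.407 TPM, below Nek2 at 22.7 ± 0.573 TPM by more than their spread. In shNC the median was 58.2 TPM. TPX2, which targets Aurora A to the spindle, led at 444 ± 1.80 TPM, well above TOP2A at 168 ± 4.39 TPM. PRC1 and NUSAP1 were lowest there, at 1.27 ± 0.272 and 1.01 ± 0.165 TPM, which did not differ beyond their spread.

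Cyclin-CDK control fell as a block apart from 3 members in the mouse. There, 13 of 16 fell, 1 rose and 2 did not pass the test, with a median log2 fold change of -0.48. All 16 fell in the human cells, with a median of -0.59. In the core of the mitotic switch, Ccna2, Ccnb1, Ccnb2 and Cdk1 were at 72.2%, 71.0%, 74.4% and 71.7% of their WT level in cKO, and at 58.7%, 60.2%, 67.6% and 69.4% of shNC in shDDX21. Cdk1 (ENSMUSG00000019942; chromosome 10, 69335146 to 69352938, minus strand) was at 109, 104 and 108 CPM in WT and 79.3, 80.1 and 71.2 CPM in cKO (log2 fold change -0.48, SE 0.055, adjusted p 0.000589). The groups did not overlap, with cKO replicate 3 the lowest. Human CDK1 (ENSG00000170312; chromosome 10, 60778331 to 60794852) was at 76.9, 76.2 and 74.5 CPM in shNC and 50.4, 54.7 and 52.9 CPM in shDDX21, again without overlap (log2 fold change -0.53, SE 0.043, adjusted p 8.83e-18).

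The cyclin-CDK members with the smallest p in the mouse were Cdca3, a ubiquitin ligase adaptor that helps remove the CDK1 inhibitor WEE1, and Aurka, the kinase of the spindle poles. Cdca3 was at 93.7, 97.9 and 89.2 CPM in WT and 60.4, 59.1 and 59.1 CPM in cKO (log2 fold change -0.65, SE 0.048, adjusted p 6.99e-05). Aurka was at 119, 124 and 122 CPM in WT and 82.2, 79.3 and 84.7 CPM in cKO (log2 fold change -0.56, SE 0.042, adjusted p 7.25e-05). All cKO libraries lay below all WT libraries for both. In the human cells the smallest p belonged to GTSE1, described further on, and CCNA2, the cyclin of S phase and early mitosis. CCNA2 was at 95.0, 107 and 95.3 CPM in shNC and 59.5, 57.3 and 57.7 CPM in shDDX21 (log2 fold change -0.76, SE 0.042, adjusted p 1.42e-26), with shNC replicate 2 the highest.

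Plk1, the kinase that activates CDC25 and matures centrosomes, had the largest fall of any mouse member, to 54.0% of WT. It was at 124, 116 and 93.3 CPM in WT and 69.9, 50.2 and 60.2 CPM in cKO (log2 fold change -0.89, SE 0.14, adjusted p 0.00274). WT replicate 3 and cKO replicate 2 were the lowest of their groups, as they were for Espl1, Aurkb and Incenp. Without both libraries the log2 fold change was -0.87 with an adjusted p of 8.5e-05. Human PLK1 fell to 63.9% of shNC, from 83.4, 81.1 and 81.7 CPM in shNC to 53.9, 53.6 and 50 CPM in shDDX21, without overlap. The phosphatases that switch on CDK1, Cdc25b and Cdc25c, were at 60.7% and 59.5% of WT, and at 65.2% and 62.2% of shNC. The CDK subunits Cks1b and Cks2 were at 75.2% and 71.7% of WT and at 68.9% and 78.4% of shNC. The centrosome kinase Nek2 was at 74.6% of WT and 66.0% of shNC, and Espl1, which encodes separase, at 60.5% and 70.7%.

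In the mouse, 2 genes of anaphase onset did not pass the test. Ube2c, the ubiquitin-conjugating enzyme of the anaphase-promoting complex, was at 67.1, 64.3 and 64.6 CPM in WT and 60.4, 61.5 and 58.5 CPM in cKO (log2 fold change -0.12, SE 0.046, adjusted p 0.0809). All 3 cKO libraries were nonetheless below all 3 WT libraries. Pttg1, the securin that holds separase inactive, was at 13.7, 13.1 and 14.8 CPM in WT and 15.4, 15.6 and 14.7 CPM in cKO (log2 fold change 0.14, SE 0.079, adjusted p 0.211), and its groups overlapped. Both fell in the human cells: UBE2C was at 34.8, 37.5 and 32.5 CPM in shNC and 27.7, 29.4 and 28.7 CPM in shDDX21 (log2 fold change -0.29, SE 0.061, adjusted p 5.08e-05), and PTTG1 at 28.8, 27.0 and 24.5 CPM in shNC and 20.6, 20.6 and 21.6 CPM in shDDX21 (log2 fold change -0.35, SE 0.071, adjusted p 1.48e-05). With CKS2 at -0.35 these were the smallest falls among the human cyclin-CDK members. In cKO, securin was thus at 110% of its WT level and its target separase at 60.5%.

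Gtse1 was the exception in the mouse. It encodes a microtubule-binding protein of G2 and mitosis that binds p53, and was first described in the mouse as a transcript induced by p53. Gtse1 (ENSMUSG00000022385; chromosome 15, 85859745 to 85876573, plus strand) was at 54.8, 54.0 and 37.7 CPM in WT and 181, 116 and 141 CPM in cKO. Every cKO library was above every WT library, and WT replicate 3 and cKO replicate 2 were the lowest of their groups. The level in cKO was 299% of WT (log2 fold change 1.58, SE 0.20, adjusted p 0.000821), and leaving out any 1 library gave values from 1.41 to 1.74. Human GTSE1 was at 43.9, 39.5 and 39.6 CPM in shNC and 15.7, 14.6 and 17.2 CPM in shDDX21 (log2 fold change -1.37, SE 0.069, adjusted p 1.09e-28). There the groups did not overlap in the other direction, with shDDX21 at 38.7% of shNC. Of the p53-linked brakes on division listed beside the members, which include Cdkn1a, the inhibitor p21, 4 of 7 rose in the mouse and 0 fell, while 2 of 6 rose and 1 fell in the human cells. The human shares were close to those of all genes tested there (25.3% rose and 27.4% fell), and in the mouse 20.7% of all genes rose. Cdkn1a rose by 5.81 on the log2 scale in cKO and CDKN1A by 0.59 in shDDX21.

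**Figure D4:**
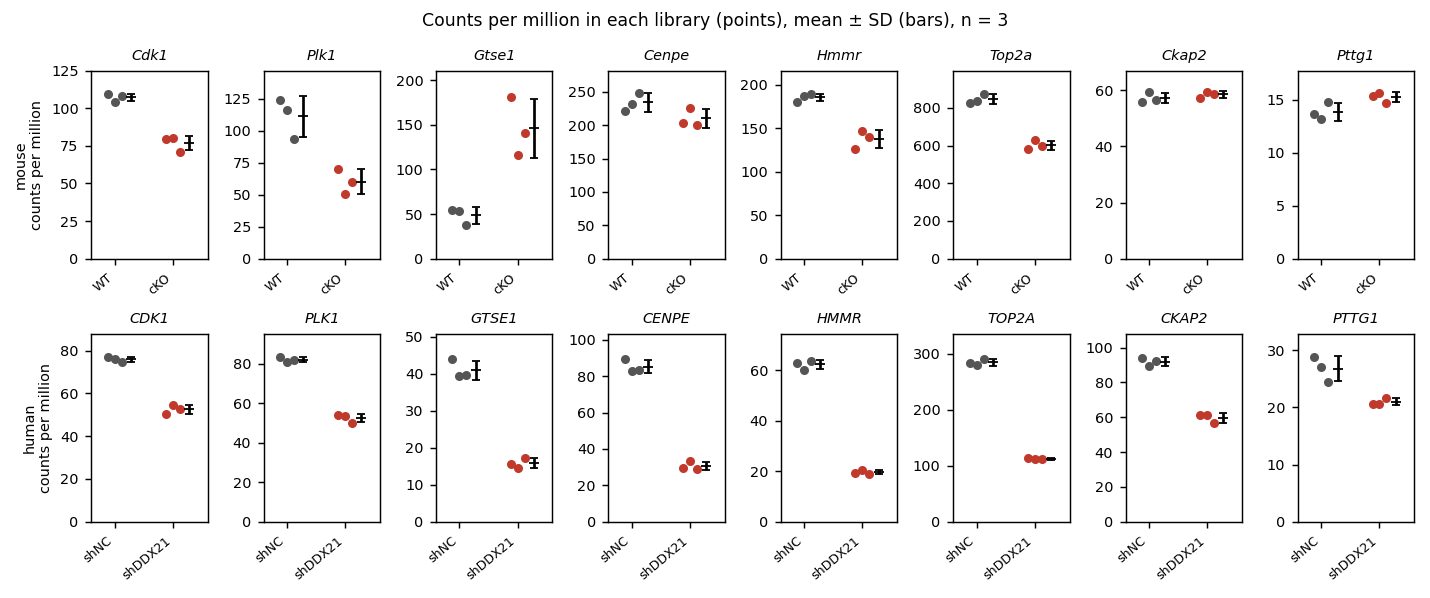
CPM of 8 members in each library (points) with the mean ± SD of each group (bars, n = 3), mouse above and human below, with each y axis starting at 0. Gtse1 is higher in all cKO libraries and lower in all shDDX21 libraries, and Ckap2 and Pttg1 overlap between WT and cKO but not between shNC and shDDX21.

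Kinetochore and checkpoint genes fell in both experiments. In the mouse 14 of 15 fell, with a median log2 fold change of -0.46, and in the human cells 15 of 15 fell, with a median of -0.80. The mouse members with the smallest p were Bub1b, which encodes the checkpoint inhibitor BUBR1, and Cenpf, a large kinetochore protein. Bub1b was at 275, 260.3 and 270.0 CPM in WT and 192, 189 and 191 CPM in cKO (log2 fold change -0.49, SE 0.035, adjusted p 5.84e-05). Cenpf was at 165, 176 and 186 CPM in WT and 105, 112 and 105 CPM in cKO (log2 fold change -0.71, SE 0.055, adjusted p 8.47e-05). The cKO libraries of Bub1b were nearly level, and neither gene overlapped between groups. Human CENPF was at 282, 278 and 289.5 CPM in shNC and 169, 177 and 174 CPM in shDDX21 (log2 fold change -0.71, SE 0.027, adjusted p 1.87e-35).

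CENPE, the kinesin that carries chromosomes to the spindle equator, fell in the human cells and did not pass the test in the mouse. Mouse Cenpe was at 221, 232 and 249 CPM in WT and 204, 226 and 201 CPM in cKO (log2 fold change -0.15, SE 0.063, adjusted p 0.0934). Its groups overlapped, since cKO replicate 2 lay above WT replicate 1, and leaving out cKO replicate 2 gave -0.20 with an adjusted p of 0.0471. Human CENPE had the smallest p of its role and was at 89.2, 83.1 and 83.5 CPM in shNC and 29.4, 33.4 and 29.3 CPM in shDDX21 (log2 fold change -1.48, SE 0.049, adjusted p 6.68e-39). Every shDDX21 library was far below every shNC library.

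Within the checkpoint, the mouse falls differed in depth. Bub1, Bub1b and Ttk (the kinase MPS1) were at 73.7%, 71.0% and 71.5% of WT. Bub3, the binding partner of Bub1 and Bub1b, was at 85.6% and Cdc20, the target of the checkpoint, at 92.3%. The same 5 genes were in the human cells at 52.4%, 57.7%, 59.8%, 62.0% and 60.1% of shNC. The calls of Bub3, Cdc20 and of Ndc80, which binds microtubules at the kinetochore, were close to the threshold in the mouse (adjusted p 0.0309, 0.038 and 0.0474). Of 14 other settings, Cdc20 lost its call in 12, Ndc80 in 10 and Bub3 in 5. Cdc20 lost it with DESeq2 (adjusted p 0.184), total counts (0.43), upper-quartile factors (0.235), no low-count filter (0.0629), a filter of at least 10 counts per library (0.0546) and a replicate block (0.0844), and when any 1 of the 6 libraries was left out (0.0577 to 0.143). Ndc80 lost it with DESeq2 (adjusted p 0.0676), total counts (0.169), upper-quartile factors (0.12), a filter of at least 10 counts per library (0.061) and a replicate block (0.0724), and without WT replicate 1, 2 or 3 or cKO replicate 1 or 3 (0.0699 to 0.127). Bub3 lost it with total counts (adjusted p 0.0631) and without WT replicate 1, WT replicate 2, cKO replicate 2 or cKO replicate 3 (0.0675 to 0.105). All 3 kept their direction in each of the 14 settings. Nuf2, the partner of Ndc80, was at 70.0% of WT, and human NDC80 and NUF2 were at 54.8% and 55.9% of shNC.

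The 4 subunits of the chromosomal passenger complex, which corrects faulty attachments and guides cytokinesis, fell in both experiments. The kinase Aurkb was at 58.2% of WT, Incenp, its scaffold, at 62.1%, Birc5 (survivin) at 66.4% and Cdca8 (borealin) at 73.5%. Human AURKB was at 66.8% of shNC, INCENP at 50.8%, BIRC5 at 48.4% and CDCA8 at 63.2%. AURKB thus had the lowest share of the control level of the 4 in the mouse and the highest in the human cells, a difference in order that was not tested. The centromere histone Cenpa and its loading factor Hjurp were at 72.7% and 77.6% of WT and at 68.3% and 52.1% of shNC.

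Spindle motors and microtubule proteins held both the largest and the smallest of the human falls. In the mouse 9 of 11 fell, with a median log2 fold change of -0.44, and in the human cells 11 of 12 fell, with a median of -1.04. Ckap2l, a spindle pole protein, and Tacc3, which crosslinks the fibres attached to kinetochores, had the smallest p in the mouse. Ckap2l was at 78.5, 78.0 and 84.4 CPM in WT and 53.2, 52.4 and 52.4 CPM in cKO (log2 fold change -0.61, SE 0.049, adjusted p 0.000102). Tacc3 was at 146, 144 and 147 CPM in WT and 98.3, 109 and 102 CPM in cKO (log2 fold change -0.50, SE 0.046, adjusted p 0.000198). Neither overlapped between groups. Human TACC3 had the smallest fall of any member that passed the test, to 85.0% of shNC, at 158, 155 and 156 CPM in shNC and 135, 128 and 134 CPM in shDDX21 (log2 fold change -0.23, SE 0.031, adjusted p 6.03e-10).

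Ckap2 and Ckap5 did not pass the test in the mouse. Ckap2, a microtubule-stabilising protein of the spindle, was at 55.7, 59.4 and 56.7 CPM in WT and 57.3, 59.4 and 58.7 CPM in cKO (log2 fold change 0.03, SE 0.048, adjusted p 0.65). Ckap5, the microtubule polymerase ch-TOG, was at 259, 267 and 286 CPM in WT and 263, 281 and 263 CPM in cKO (log2 fold change -0.01, SE 0.05, adjusted p 0.905). Both overlapped between groups, and the sign for Ckap5 turned with the scaling (0.06 with total counts). Human CKAP2 was at 94.2, 89.2 and 92.5 CPM in shNC and 61.1, 61.6 and 56.5 CPM in shDDX21 (log2 fold change -0.62, SE 0.041, adjusted p 1.79e-22), and human CKAP5 at 234, 233 and 239.5 CPM in shNC and 171, 186 and 181 CPM in shDDX21 (log2 fold change -0.39, SE 0.029, adjusted p 3.79e-20). All shDDX21 libraries lay below all shNC libraries for both.

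Of the 12 human spindle genes, 7 fell by at least 2-fold. HMMR, a microtubule-binding protein of the spindle poles, was at 63.0, 60.3 and 63.9 CPM in shNC and 19.1, 20.7 and 19.1 CPM in shDDX21 (log2 fold change -1.67, SE 0.057, adjusted p 2.01e-38), the largest fall of any member. In the mouse Hmmr was at 180.3, 187 and 189 CPM in WT and 126, 146 and 139.9 CPM in cKO (log2 fold change -0.43, SE 0.059, adjusted p 0.00128). KIF11, the kinesin that separates the poles, was at 94.5, 97.4 and 99.8 CPM in shNC and 36.5, 36.5 and 37.5 CPM in shDDX21 (log2 fold change -1.40, SE 0.044, adjusted p 1.56e-40), against 67.1% of WT in the mouse. The human groups lay far apart for both genes. TPX2 was at 426, 428 and 425 CPM in shNC and 217, 207 and 209 CPM in shDDX21 (log2 fold change -1.01, SE 0.025, adjusted p 7.66e-47), and mouse Tpx2 at 83.3% of WT. Of the rest, the human levels were 41.0% of shNC for CKAP2L, 45.8% for KIF20B and for KIF4A, 47.5% for DLGAP5 and 60.1% for KIF2C, and the mouse levels were 76.5% of WT for Kif20b, 73.5% for Dlgap5, 66.7% for Kif2c and 67.1% for Kif11. Mouse Kif4, which the symbol match left out of the members, fell by 0.38 on the log2 scale.

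NUSAP1, which bundles spindle microtubules, was the 1 human member that did not pass the test, and its counts were low. It was at 1.00, 1.11 and 0.788 CPM in shNC and 0.873, 0.889 and 0.456 CPM in shDDX21 (log2 fold change -0.38, SE 0.36, adjusted p 0.407), with overlapping groups, while mouse Nusap1 was at 67.3, 69.0 and 75.3 CPM in WT and 41.8, 48.9 and 46.0 CPM in cKO (log2 fold change -0.63, SE 0.074, adjusted p 0.000632). By the deposited human gene models, 86.8% of the 3608 exonic bases of NUSAP1 (chromosome 15, 41320794 to 41381050) also belong to 1 or more genes on the same strand. The largest overlap was with ENSG00000285920, which lies on that strand and had 0 counts in all 6 libraries. PRC1, which bundles the microtubules of the central spindle, was in a like position, with 57.6% of its 5523 exonic bases shared on the same strand. Its largest overlap was with ENSG00000284946 on that strand, which had 93 to 113 counts. How reads that fit more than 1 gene were counted is not given in the sources used here, so the human values of NUSAP1 and PRC1 are uncertain. CKS2 shares 52.3% of its exonic bases with ENSG00000309658 on the other strand, which had at most 4 counts, and 0 mouse members shared over 50%.

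Condensin and chromosome structure genes fell without exception in the 8 members of both experiments, with median log2 fold changes of -0.42 in the mouse and -1.07 in the human cells. Ncapd2, a condensin I subunit, and Mki67 had the smallest p in the mouse. Ncapd2 was at 571, 578 and 568 CPM in WT and 436, 417 and 423 CPM in cKO (log2 fold change -0.43, SE 0.033, adjusted p 7.96e-05). Mki67 was at 1675, 1703 and 1766 CPM in WT and 1070, 1188 and 1114 CPM in cKO (log2 fold change -0.61, SE 0.048, adjusted p 8.97e-05). Neither overlapped between groups, and the cKO libraries of Mki67 lay far below WT. Human MKI67 was at 52.8% of shNC and NCAPD2 at 76.2%, the smallest fall of this role.

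The human members of this role with the smallest p were TOP2A and TMPO. TOP2A, the topoisomerase that untangles sister chromatids, was at 282, 279.5 and 290.5 CPM in shNC and 114, 112 and 111 CPM in shDDX21 (log2 fold change -1.34, SE 0.029, adjusted p 1.92e-50). TMPO, which encodes the lamina-associated LAP2 proteins, was at 198, 206 and 211 CPM in shNC and 92.6, 91.8 and 87.1 CPM in shDDX21 (log2 fold change -1.18, SE 0.032, adjusted p 5.44e-44). The shDDX21 libraries of TOP2A were nearly level and far under shNC. In the mouse Top2a was at 827, 838 and 876 CPM in WT and 582, 629 and 596 CPM in cKO (log2 fold change -0.49, SE 0.043, adjusted p 0.000147) and Tmpo at 80.2% of WT. Of the core ATPases of condensin, SMC2 was at 62.8% and SMC4 at 45% of shNC, and they were at 75.5% and 81.8% of WT. The condensin I subunit NCAPG was at 48.0% of shNC and 76.6% of WT, and CDCA2, which recruits a phosphatase to chromosomes at mitotic exit, at 47.0% and 70.8%.

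All 5 cytokinesis genes fell in both experiments, with medians of -0.56 and -0.82 on the log2 scale. Anln, the scaffold of the contractile ring, had the smallest p of its role in both. Mouse Anln was at 97.3, 99.3 and 101 CPM in WT and 61.4, 64.6 and 64.0 CPM in cKO (log2 fold change -0.65, SE 0.043, adjusted p 4.01e-05). Human ANLN was at 47.0, 49.9 and 48.3 CPM in shNC and 24.3, 23.6 and 24.4 CPM in shDDX21 (log2 fold change -1.0, SE 0.057, adjusted p 1.72e-25). In neither experiment did any library of the depleted group reach a control library. Racgap1, a subunit of the centralspindlin complex at the midzone, was at 147, 145 and 147 CPM in WT and 95.5, 100.4 and 102 CPM in cKO (log2 fold change -0.56, SE 0.039, adjusted p 5.47e-05). ECT2, the exchange factor it recruits to activate RhoA, was at 37.7, 42.7 and 41.5 CPM in shNC and 23.1, 23.5 and 22.5 CPM in shDDX21 (log2 fold change -0.82, SE 0.062, adjusted p 3.12e-19). Kif23, the motor of centralspindlin, was at 73.2% of WT and 68.0% of shNC, Ect2 at 75.3% of WT, RACGAP1 at 66.9% of shNC and Prc1 at 66.4% of WT. Human PRC1 was at 2.17, 2.02 and 1.41 CPM in shNC and 0.770, 1.07 and 1.08 CPM in shDDX21, with the uncertainty stated above.

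The size of the fall differed between the experiments for many members, in a share close to that of all matched genes. In a fit of all 12 libraries over 10314 genes matched by symbol, the log2 fold changes differed for 32 of 55 members, 31 with the mouse value above the human value and 1 below. Of all matched genes, 56.2% differed, 35.9% with the mouse value above and 20.4% below. The median difference, mouse minus human, was 0.30 over the members and 0.09 over all matched genes. The species, the cell type, the way DDX21 was removed and the time since removal all differ between the experiments and cannot be told apart.

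The largest differences were those of GTSE1 (2.95, SE 0.24, adjusted p 1.15e-06), CENPE (1.32, SE 0.093, adjusted p 3.15e-07) and HMMR (1.24, SE 0.080, adjusted p 1.55e-07). The lowest values were those of TACC3 (-0.26, SE 0.054, adjusted p 0.0015), NUSAP1 (-0.26, SE 0.28, adjusted p 0.49) and PLK1 (-0.24, SE 0.16, adjusted p 0.227). TACC3 was the 1 member that fell more in the mouse by this test, and the differences for NUSAP1 and PLK1 did not pass it. Without WT replicate 3, PLK1 (-0.36, adjusted p 0.0423), ESPL1 (-0.30, adjusted p 0.0484) and AURKB (-0.31, adjusted p 0.0309) passed it too. Without cKO replicate 1, PLK1 (-0.35, adjusted p 0.045) and ESPL1 (-0.30, adjusted p 0.0374) did, and ESPL1 did with upper-quartile factors (-0.27, adjusted p 0.0458). Without both WT replicate 3 and cKO replicate 2, the adjusted p was 0.0236 for PLK1, 0.0264 for ESPL1 and 0.0254 for AURKB. Other members passed the test in some settings with the mouse value above the human value. These were TTK in 6 of 19 settings, CDCA8 in 4, CCNB2 and UBE2C in 2 each, and CKS1B and KIF2C in 1 each. Across the 55 members, which share libraries and are not independent, the mouse and human log2 fold changes had a Pearson correlation of -0.17 and a Spearman correlation of -0.07, and 0.05 and -0.02 without GTSE1. The log2 fold change in the human cells had an r of -0.34 and a rho of -0.30 with the log10 of exonic length over 56 members, and that in the mouse an r of -0.14 and a rho of 0.00 over 55. The log10 TPM in WT and in shNC had an r of 0.54 and a rho of 0.67, on tables scaled separately.

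**Figure D5:**
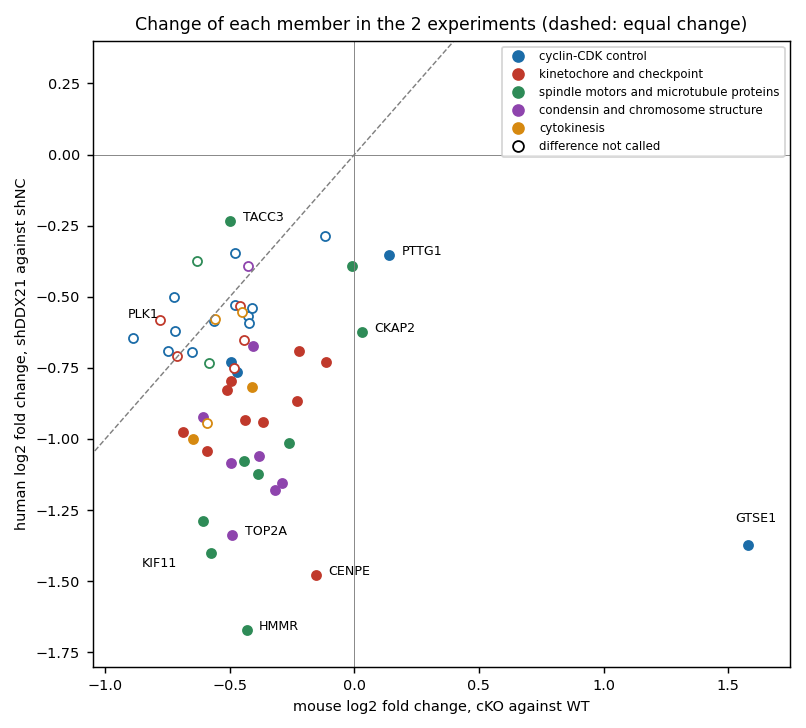
Log2 fold change of each of 55 members in the mouse (x axis) and in the human cells (y axis), coloured by role, with the dashed line marking equal change and open points where the difference did not pass the test. Most filled points lie below the line, where the human fall was deeper, and TACC3 is the filled point above it.

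The changes in cKO can be set beside the promoter letters, with no test. Of the 37 members with CHR letters, 34 fell, with a median log2 fold change of -0.45 and a range from -0.89 to 0.03. Of the 10 without them, 7 fell, with a median of -0.49 and a range from -0.63 to 1.58. The top of that range is Gtse1, whose stretch above holds CCAAT boxes and neither TTTGAA nor TTCGAA on either strand, the only CHR letters searched. Of the 5 members that did not pass the test, Ube2c, Ckap2 and Ckap5 hold them and Pttg1 and Cenpe do not.

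Among other genes of mitosis, decreases also outnumbered increases. A list of 145, also chosen with earlier results of these data known, was set beside the members. It includes Kif4, the mouse form of the member KIF4A. Of the list, 143 were tested in the mouse and 144 in the human cells. In the mouse 75 fell and 11 rose, with a median of -0.20, and in the human cells 106 fell and 9 rose, with a median of -0.38. The shares that fell were 52.4% and 73.6%, against 15.8% and 27.4% of all genes tested. Among 13 regulators of G2/M transcription, 7 fell and 1 rose in the mouse, and 8 fell and 0 rose in the human cells. Foxm1, the activator of this program, was at 86.2, 85.0 and 83.0 CPM in WT and 55.7, 50 and 57.6 CPM in cKO and FOXM1 at 55.7, 54.2 and 59.5 CPM in shNC and 33.4, 34.0 and 38.1 CPM in shDDX21. The groups did not overlap in either. Rbl2, which encodes the p130 protein of the DREAM complex, rose by 0.66 in cKO, at 43.4, 45.3 and 48.3 CPM in WT and 69.2, 75.2 and 71.6 CPM in cKO, while human RBL2 was at -0.03 and did not pass the test. TFDP1 and RBL1, the DREAM partners DP1 and p107, fell by 1.00 and 0.98 in shDDX21. In the mouse Rbl1 fell by 0.37, and Tfdp1, at -0.07, did not pass the test (adjusted p 0.241).

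Groups within that list did not all follow. Of all genes tested, 15.8% fell and 20.7% rose in the mouse, and 27.4% fell and 25.3% rose in the human cells. Of 34 further kinetochore and checkpoint genes tested in the mouse, 25 fell and 0 rose (median -0.44), and of 35 in the human cells 25 fell and 1 rose (median -0.46). KNL1, the scaffold that binds BUB1 and the NDC80 complex, fell by 0.60 in the mouse and by 1.29 in the human cells. Of 16 further cytokinesis genes, 2 fell and 6 rose in the mouse (median 0.04), and 12 fell and 1 rose in the human cells (median -0.18). The mouse share that fell, 12.5%, was near that of all genes tested. Pdcd6ip, the abscission factor ALIX, rose by 0.93 in cKO and PDCD6IP fell by 0.29 in shDDX21. Cep55, which recruits it to the midbody, rose by 0.34 in cKO and CEP55 fell by 1.69 in shDDX21. Of 23 further spindle proteins in the mouse, Kif4 among them, 14 fell and 2 rose. Of 22 in the human cells, 16 fell and 2 rose. Psrc1, a spindle protein also induced by p53, rose by 3.21 in cKO and PSRC1 by 0.76 in shDDX21. The anaphase-promoting complex, which degrades securin and cyclin B, had 7 of 16 genes lower and 1 higher in the mouse, and 10 of 16 lower and 2 higher in the human cells.

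S phase genes, which act just before these in the cycle, fell as well. Of 42, 35 fell and 0 rose in the mouse with a median of -0.35, and 42 fell in the human cells with a median of -0.80. Over all genes tested, 15.8% fell in the mouse and 27.4% in the human cells. The summed level was 11430 to 11780 CPM in WT and 8954 to 9255 CPM in cKO, and 3287 to 3352 CPM in shNC and 1860 to 1879 CPM in shDDX21. The S phase median was nearer 0 than that of the members in the mouse (-0.35 and -0.47) and farther from 0 in the human cells (-0.80 and -0.73). These differences between lists were not tested, and the S phase list too was chosen with earlier results of these data known.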

How the data were processed

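Counts of 12 libraries, 3 in each of 4 groups, were used as deposited. Per the submitters' processing notes, STAR, featureCounts and DESeq2 were used, with mm10 and hg38; versions and the strand setting are not given in the sources used here. Values in the deposited raw tables are whole read counts per gene. The deposited normalized tables hold signal values, checked to equal the count over 1 constant per library, and log2 values by the authors; both served for symbols only. No column of per-sample values was left unused.

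Each experiment was fitted with edgeR 4.0.16 in R 4.3.3 (filterByExpr, TMM factors, two-sided quasi-likelihood test, Benjamini-Hochberg adjustment over all genes tested, call at adjusted p under 0.05). DESeq2 1.42.0 was an alternative, beside other scalings, filters, a 2-fold minimum, a replicate block and leaving out each library. The SE of a log2 fold change, the SD of CPM and TPM over 3 libraries, and coordinates come from these tables. The difference between experiments was tested in 1 edgeR fit over all 12 libraries, scaled within each experiment. With 3 against 3, an exact two-sided permutation test of 1 value cannot go below 0.1. The biological coefficient of variation was 10.5% in the mouse and 2.23% in the human libraries.

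The members and gene lists were chosen with earlier results of these data known. Values in every library are given, per role and experiment, for the 2 members with the smallest p, for members not called or called against their role, for those called in opposite directions, and for the 3 largest and 3 smallest differences between experiments. Cdk1, Plk1 and a few others were added after their values were seen. Same-numbered libraries correlated in their deviations at 0.316, -0.177 and 0.013 in the mouse and -0.014, -0.002 and -0.001 in the human cells, so numbers were not taken to pair samples. Mouse libraries with unlike numbers ran from -0.419 (WT replicate 3 with cKO replicate 1) to 0.408 (WT replicate 3 with cKO replicate 2). On simulated counts, edgeR recovered 63 of 100 genes changed by 1.5-fold and 100 of 100 changed by 2-fold in the mouse, with 7 false calls among 14646 genes, and 92 and 100 of 100 in the human design, with 9 among 19719. Each simulated gene had the spread of the trend over all genes, not its own, and genes with low counts were not among those changed.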

Additional observations from a re-analysis of the deposited data

Results flagged for a closer look

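For 32 of 55 members the change with loss of DDX21 differed between the mouse and the human experiment, by the edgeR test of the difference between the log2 fold changes (adjusted p under 0.05 over 10314 matched genes). Of all matched genes 56.2% differed, so the count alone does not set the members apart. By direction, 31 members had the mouse value above the human value, against 35.9% of all matched genes. Values are mouse minus human on the log2 scale, so that a positive value means a smaller fall, or a rise, in the mouse. In cyclin-CDK control they were 0.30 for CCNA2, 0.24 for CCNB1, 2.95 for GTSE1 and 0.49 for PTTG1. At the kinetochore and checkpoint they were 0.49 for BUB1, 0.30 for BUB1B, 0.47 for BUB3, 0.62 for CDC20, 1.32 for CENPE, 0.64 for NDC80, 0.32 for NUF2, 0.57 for HJURP, 0.46 for BIRC5 and 0.29 for INCENP. On the spindle they were 0.82 for KIF11, 0.74 for KIF20B, 0.75 for TPX2, -0.26 for TACC3, 0.65 for CKAP2, 0.68 for CKAP2L, 0.38 for CKAP5, 0.63 for DLGAP5 and 1.24 for HMMR. For chromosome structure they were 0.85 for TOP2A, 0.27 for SMC2, 0.86 for SMC4, 0.68 for NCAPG, 0.31 for MKI67, 0.86 for TMPO and 0.59 for CDCA2. In cytokinesis they were 0.41 for ECT2 and 0.35 for ANLN.

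The call for NUF2 was lost in 12 settings, with adjusted p up to 0.114, among them leaving out WT replicate 1, WT replicate 2, cKO replicate 2, cKO replicate 3, shNC replicate 1, shNC replicate 2, or shDDX21 replicate 2 or 3. That for INCENP was lost without shNC replicate 1 (adjusted p 0.0532), shDDX21 replicate 2 (0.0662) or shDDX21 replicate 3 (0.0691).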

How the results depend on the processing

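The members' calls kept to within 1.5 times of their count in every setting run except the 2-fold minimum, which left 0 mouse and 16 human members lower, 1 and 10 of the other mitotic genes, and 0 and 13 S phase genes. The mouse median log2 fold change was -0.41 with total counts. The human median was -0.76 with total counts and -0.66 with upper-quartile factors. Leaving out 1 library at a time gave 46 to 48 mouse members lower, 1 higher, and a median of -0.49 to -0.45, and 55 human members lower with a median of -0.75 to -0.73. It gave 62 to 73 other mitotic genes and 29 to 34 S phase genes lower in the mouse, 102 to 106 and 41 to 42 in the human cells, and 31 to 36 members that differed between experiments (38 with total counts). With the replicate block, 47 mouse and 55 human members, 75 and 106 other mitotic genes, and 34 and 42 S phase genes were lower, and 31 members differed between experiments.

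Signs turned only for changes near 0. Mouse CKAP5 was at 0.06 with total counts, 0.02 with upper-quartile factors, 0.01 with at least 10 counts in every library, 0.01 without both WT replicate 3 and cKO replicate 2, and -0.04 to 0.03 when 1 library was left out, above 0 without WT replicate 3, cKO replicate 1 or cKO replicate 3. The difference between experiments turned with total counts for CDC25C (0.04), CENPF (0.09) and NCAPD2 (0.06), and with upper-quartile factors for AURKA (-0.02), CDCA3 (0.00) and RACGAP1 (-0.02). CENPF was at 0.00 with at least 10 counts in every library, 0.02 without both libraries named above, and between -0.05 and 0.04 when 1 library was left out. Leaving out 1 library gave -0.16 to 0.01 for CDC25C, 0.00 to 0.06 for AURKA and -0.07 to 0.18 for CENPA. The cause of these shifts was not tested. On simulated counts of the mouse design, 63 of 100 changes of 1.5-fold were recovered, and smaller changes were not simulated. The spread there was that of the trend over all genes, so this share need not hold for the members.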
